A study of Mus musculus with 12 samples.

Results

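The genes described are 8 that cells switch on in response to bone morphogenetic proteins (BMPs): Id1, Id2, Id3, Id4, Smad6, Smad7, Msx1 and Msx2. They were chosen by symbol, and each matched 1 of the 24692 entries of the deposited table. All 8 reached 1 FPKM (a level per length of transcript and per mapped fragments of the library) in at least 3 of the 12 libraries, as did 12774 entries in all. The libraries are RNA sequencing of cells sorted from the back skin of male mice at postnatal day 26 to 27, with hair follicles in early anagen, the start of a growth phase. Each population has 3 libraries: dermal papilla (DP), the signalling cluster at the follicle base; dermal sheath (DS), the mesenchymal coat of the follicle; hair follicle dermal stem cells (hfDSC), which give rise to sheath cells; and interfollicular dermis (IFD), the connective tissue between follicles. Every mouse carried both reporters, Sox2:GFP and aSMA:dsRed, in which the Sox2 gene and the smooth muscle actin promoter drive green and red fluorescence. The skin was digested with dispase and collagenase. The antibodies used in the sort are not named in the labels, and nothing says whether each library had its own mice, so the tests measure only how far these 3 libraries of a population scatter, which may be technical scatter. One dermal sheath library is labelled DSL1, whose extra letter is not explained, and it is called dermal sheath replicate 1 here.

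BMP ligands bind paired receptors that phosphorylate Smad1, Smad5 and Smad9, which enter the nucleus with Smad4. Id genes are direct targets of these complexes in many cell types, and Id proteins hold E proteins in pairs that cannot bind DNA. Smad6 and Smad7 encode inhibitory Smads that feed back on the pathway, and Smad7 is also induced by TGF-beta. Msx1 and Msx2 encode homeobox repressors that respond to BMPs in skin appendages, and Msx2 is known for its part in hair shaft differentiation. In the follicle, BMP signalling is known to hold epithelial stem cells quiescent and to maintain the hair-inducing ability of the papilla.

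Checked against defining markers, DS and IFD were low in dermal fibroblast transcripts. The 10 genes of that marker list, which include Pdgfra, Col1a1 and Vim, summed to 13234 to 23860 FPKM in DP, 973 to 1923 in DS, 9429 to 11925 in hfDSC and 826 to 1555 in IFD. None of the 10 was at 0 in all 3 libraries of any population. The 12 hair matrix and shaft genes summed to 99.4 to 1153 FPKM in DP, 849 to 1097 in DS, 179 to 447 in hfDSC and 894 to 1127 in IFD. Of these 12, only Krt85 was listed at 0 in all 3 libraries of a population, in every population but DS. The similar sums of DS and IFD were made up of different genes. Krt35 averaged 8.38 FPKM in DS and 308 in IFD, Shh 2.16 and 65.1, Hoxc13 12.6 and 44.6, and Krt73 16.8 and 68.4. Each of these had its highest mean in IFD. Krt25 (335 FPKM in DS and 199 in IFD) and Krt71 (436 and 161) went the other way. So did Krt85, Foxn1 and Dlx3, with smaller differences. None of the 10 keratinocyte genes was at 0 throughout a population. They summed to 1380 to 4009 FPKM in DP, 1574 to 1701 in DS, 756 to 1429 in hfDSC and 1555 to 1768 in IFD. These genes did not move as one. Trp63, which maintains basal keratinocytes, averaged 16.1, 121, 15.5 and 89.0 FPKM. Krt1 and Krt10 went the other way, with 438, 10.5, 78.0 and 16.5 FPKM and 1528, 53.4, 361 and 167 FPKM. The 16 cell cycle genes, none at 0 throughout a population, summed to 25.2 to 53.0, 546 to 734, 38.7 to 110 and 358 to 473. The 7 smooth muscle and sheath markers summed to 77.6 to 208, 111 to 343, 1758 to 1968 and 16.3 to 39.5, and were thus highest in hfDSC. Acta2, the smooth muscle actin gene, averaged 45.4, 49.3, 872 and 8.70 FPKM. The 12 papilla markers summed to 433 to 2413, 66.9 to 157, 299 to 716 and 223 to 387. Sox2, Wif1, Hhip, Inhba, Fgf7, Fgf10, Rspo3 and Crabp1 had their highest mean in DP. The means of Sox18, Alx4 and Corin were highest in hfDSC (Corin 90.9 FPKM, against 54.9 in DP). That of Lef1 was highest in IFD (87.0 FPKM, against 19.4 in DP). The lowest DP sum, that of replicate 1, lay within the range of hfDSC. Sox2 averaged 3.57, 0.153, 1.14 and 0.241 FPKM, and at 0.882 in DP replicate 1 was below every hfDSC library (1.11 to 1.17). The population names are those of the labels throughout. The part of these differences in the results below was not tested, and in bulk RNA fewer cells of a type and less RNA per cell cannot be told apart. Summed FPKM per library ran from 181683 to 262695, and depth relative to hfDSC replicate 2, read from the commonest ratio of values under 0.3 FPKM, ran from 0.633 to 1.93.

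**Figure D1:**
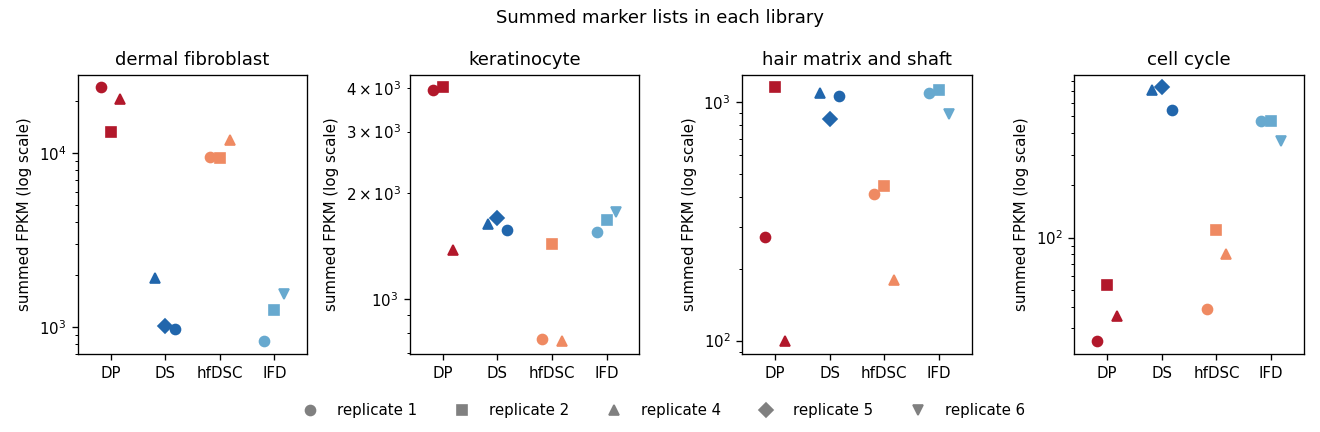
Summed FPKM (log scale) of 4 marker lists in each of the 12 libraries, by population and with 1 symbol per replicate number. All DS and IFD libraries (826 to 1923 FPKM) sit below all DP and hfDSC libraries (9429 to 23860 FPKM) in the dermal fibroblast panel, and above them in the cell cycle panel.

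The Msx genes differed most among the populations. Between the highest and the lowest population mean, Msx1 spanned 15.6-fold, Msx2 9.78-fold and Id1 6.13-fold, while Id4, Id3, Id2 and Smad6 spanned 2.16-fold to 2.78-fold and Smad7 1.21-fold. In a moderated F test across the 4 populations (limma, Benjamini-Hochberg adjustment over all 12774 genes), 6 of the 8 passed, all but Smad6 and Smad7, against 56.8% of all genes tested. Without DS replicate 5, or with median-of-ratios scaling, 3 of the 8 passed. The adjusted p was 2.1e-05 for Msx2, 0.000143 for Msx1, 0.00155 for Id1, 0.0254 for Id4, 0.0279 for Id2, 0.0286 for Id3, 0.0847 for Smad6 and 0.746 for Smad7.

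**Figure D2:**
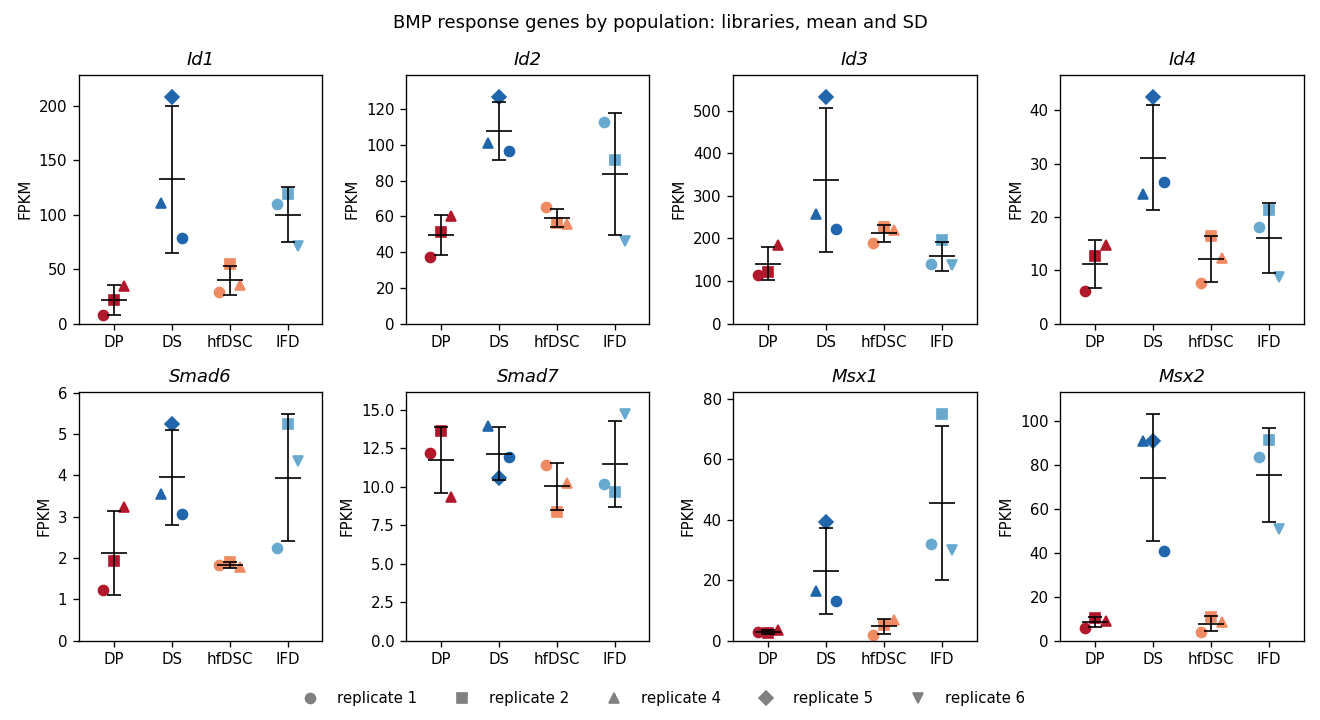
FPKM of each gene in the 12 libraries (points, 1 symbol per replicate number) with the mean and SD of each population (black), each axis starting at 0. Msx1, Msx2 and Id1 are higher in every DS and IFD library than in any DP or hfDSC library, a split whose share among all genes was not counted. Smad7 lies between 8.38 and 14.7 FPKM in all 12.

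Of the 8 genes, Id1 had no promoter entry to use and Smad7 was left out, so neither was searched for motifs. Promoters of the other 6 were taken from RefSeq on GRCm38.p6, as 250 bases before to 50 after the annotated start. They were searched on both strands for GGCGCC and GGAGCC, short motifs that BMP Smads are known to bind, and for the palindrome GTCTAGAC, a Smad binding element. GGCGCC was found in 2 of the 6, Id2 and Id4, and in 11.9% of all 32851 RefSeq promoters of that length. GGAGCC was found in all 6, and in 30.8% of all promoters. These windows are rich in G and C, from 60% in Id3 to 73.3% in Id4. GTCTAGAC was found in Smad6 alone, beginning 4 bases before the start used for its window and running across it, and in 0.213% of all promoters. That start lies inside the gene bounds given below, whose outer end for this minus-strand gene is 64022085. No base belonged to matches of different motifs. The promoters of the pair of Msx genes are printed because these genes differed most, that of Id3 because it was the most abundant, and that of Smad6 for its palindrome. Each runs 5′ to 3′ on the strand of the gene, and capitals mark matches to any of the 3 motifs on either strand.
Msx1 (chr5:37824536-37824835, minus strand): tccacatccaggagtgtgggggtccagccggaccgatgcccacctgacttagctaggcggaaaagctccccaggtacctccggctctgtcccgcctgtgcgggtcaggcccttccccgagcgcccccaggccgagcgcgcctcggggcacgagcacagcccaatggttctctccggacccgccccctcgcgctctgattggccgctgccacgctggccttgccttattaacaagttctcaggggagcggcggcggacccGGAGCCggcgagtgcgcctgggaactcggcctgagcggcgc
Msx2 (chr13:53472731-53473030, minus strand): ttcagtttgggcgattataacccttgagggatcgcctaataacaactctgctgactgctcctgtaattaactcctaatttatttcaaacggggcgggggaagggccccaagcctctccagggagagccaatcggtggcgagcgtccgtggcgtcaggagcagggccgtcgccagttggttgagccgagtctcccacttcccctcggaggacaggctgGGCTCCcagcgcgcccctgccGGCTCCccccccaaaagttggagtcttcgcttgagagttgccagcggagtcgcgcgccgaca
Id3 (chr4:136143572-136143871, plus strand): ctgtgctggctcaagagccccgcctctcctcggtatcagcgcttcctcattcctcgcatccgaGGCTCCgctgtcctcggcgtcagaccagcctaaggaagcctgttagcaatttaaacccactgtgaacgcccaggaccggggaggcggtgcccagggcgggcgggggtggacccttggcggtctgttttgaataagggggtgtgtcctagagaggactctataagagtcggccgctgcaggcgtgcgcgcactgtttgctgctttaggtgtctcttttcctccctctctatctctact
Smad6 (chr9:64022010-64022309, minus strand): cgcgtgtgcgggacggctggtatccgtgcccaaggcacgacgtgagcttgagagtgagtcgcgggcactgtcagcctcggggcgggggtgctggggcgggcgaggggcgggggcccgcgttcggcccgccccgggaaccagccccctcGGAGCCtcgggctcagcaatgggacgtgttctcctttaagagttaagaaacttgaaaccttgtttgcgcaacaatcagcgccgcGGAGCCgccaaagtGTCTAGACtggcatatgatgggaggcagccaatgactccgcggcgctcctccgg

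Msx2 (Entrez 17702, chromosome 13, 53466881 to 53472780 on GRCm38.p6) read 5.70, 10.2 and 8.99 FPKM in DP replicates 1, 2 and 4, and 90.8, 90.6 and 40.7 FPKM in DS replicates 4, 5 and 1. It read 3.83, 10.8 and 8.43 FPKM in hfDSC replicates 1, 2 and 4, and 83.5, 91.0 and 50.8 FPKM in IFD replicates 1, 2 and 6. The lowest DS or IFD library thus stood above the highest of the other 6. The share of all genes that split the libraries in this way was not counted. DS averaged 74.0 ± 28.8 FPKM and hfDSC 7.68 ± 3.53 FPKM (SD, n = 3 libraries each), a log2 fold change of 3.12 on the log2(FPKM + 1) scale (SE 0.39, adjusted p = 6.44e-05, limma). DP averaged 8.30 ± 2.33 FPKM and was lower than DS (log2 fold change -2.96, adjusted p = 8.51e-05). IFD averaged 75.1 ± 21.3 FPKM, and both hfDSC (-3.18, adjusted p = 6.67e-05) and DP (-3.02, adjusted p = 0.000111) were lower than it. The remaining pairs did not pass. DP minus hfDSC was 0.16 (unadjusted 95% interval -0.69 to 1.01), and DS minus IFD was -0.07 (-0.92 to 0.79).

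Msx1 (Entrez 17701, chromosome 5, 37820491 to 37824585), the relative of Msx2, was lower in level but split the libraries in the same way. It read 2.76, 2.37 and 3.64 FPKM in DP replicates 1, 2 and 4, and 16.6, 39.3 and 13.2 FPKM in DS replicates 4, 5 and 1. It read 1.88, 5.30 and 6.81 FPKM in hfDSC replicates 1, 2 and 4, and 32.0, 74.9 and 29.8 FPKM in IFD replicates 1, 2 and 6. No DS or IFD library overlapped the other 6. DS rose above hfDSC by a log2 fold change of 2.05 (SE 0.47, adjusted p = 0.00374), and DP fell below DS (-2.47, adjusted p = 0.000949). Against IFD (45.6 ± 25.4 FPKM), Msx1 was lower in hfDSC (4.67 ± 2.53 FPKM, log2 fold change -3.03, adjusted p = 0.000357) and in DP (2.92 ± 0.648 FPKM, -3.45, adjusted p = 0.000145). DS averaged 23.0 ± 14.2 FPKM, and its difference from IFD did not pass (-0.98, unadjusted 95% interval -1.99 to 0.03, adjusted p = 0.342).

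Id1 (Entrez 15901, chromosome 2, 152736251 to 152737410), often read as a direct gauge of BMP signalling, was the only Id gene that passed in 4 comparisons. It read 7.73, 22.2 and 35.0 FPKM in DP replicates 1, 2 and 4, and 111, 208 and 78.7 FPKM in DS replicates 4, 5 and 1. It read 28.9, 54.9 and 35.7 FPKM in hfDSC replicates 1, 2 and 4, and 110, 119 and 71.3 FPKM in IFD replicates 1, 2 and 6. DP and hfDSC overlapped, as did DS and IFD, and no other pair did. DP (21.6 ± 13.6 FPKM) was lower than DS (132 ± 67.2 FPKM, log2 fold change -2.67, SE 0.48, adjusted p = 0.000701) and lower than IFD (100.3 ± 25.6 FPKM, log2 fold change -2.35, adjusted p = 0.00216). Without DP replicates 1 and 2, whose keratinocyte sums of 3943 and 4009 FPKM stand above the 1380 of replicate 4, the second of these was -1.46 (adjusted p = 0.0523, the remaining papilla library being assumed to vary like the other groups). DS rose above hfDSC (39.8 ± 13.5 FPKM) with a log2 fold change of 1.64 (adjusted p = 0.0151). hfDSC were lower than IFD (log2 fold change -1.33, adjusted p = 0.0456), a call that ended in 9 of 18 alternatives, among them median-of-ratios scaling (-1.18, adjusted p = 0.0688) and leaving out DP replicate 2, DS replicate 4, hfDSC replicate 1 or 4, or IFD replicate 1 or 2 (0.053 to 0.148). DP minus hfDSC was -1.02 (adjusted p = 0.204) and DS minus IFD 0.31 (adjusted p = 0.82), neither of which passed.

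Id3 (Entrez 15903, chromosome 4, 136143822 to 136145392) had the highest FPKM of the 8 genes in each population mean. It read 115, 121 and 185 FPKM in DP replicates 1, 2 and 4, and 257, 531 and 222 FPKM in DS replicates 4, 5 and 1. It read 190, 227 and 220 FPKM in hfDSC replicates 1, 2 and 4, and 140, 197 and 137 FPKM in IFD replicates 1, 2 and 6. Unlike Msx2 or Id1, its hfDSC mean (212 ± 19.4 FPKM) lay above that of IFD (158 ± 33.6 FPKM), with overlapping libraries and no pass (0.44, adjusted p = 0.311). The order of means was DS, hfDSC, IFD, DP, and no neighbours in that order passed. Of the 6 comparisons 1 passed: DP (140 ± 38.9 FPKM) was lower than DS (336 ± 169 FPKM), with a log2 fold change of -1.18 (SE 0.32, adjusted p = 0.00943). DS lay above IFD in all libraries without passing (0.99, adjusted p = 0.152). DS minus hfDSC was 0.56 (adjusted p = 0.184), and 1.33 with quantile normalization (adjusted p = 0.0079).

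Id2 (Entrez 15902, chromosome 12, 25093799 to 25096092) and Id4 (Entrez 15904, chromosome 13, 48261116 to 48266028) were highest in DS. Id2 read 37.4, 51.4 and 60.0 FPKM in DP replicates 1, 2 and 4, and 101, 126 and 96.3 FPKM in DS replicates 4, 5 and 1. It read 65.0, 56.5 and 55.8 FPKM in hfDSC replicates 1, 2 and 4, and 113, 91.5 and 46.0 FPKM in IFD replicates 1, 2 and 6. All DS libraries stood above all DP and hfDSC libraries, while IFD overlapped every other population. Id2 was lower in DP than in DS (log2 fold change -1.12, SE 0.30, adjusted p = 0.00822) and higher in DS than in hfDSC (0.85, adjusted p = 0.0361). Against IFD (83.4 ± 34.1 FPKM), DP (-0.67, adjusted p = 0.09), DS (0.45) and hfDSC (-0.40) did not pass. Without IFD replicate 6, the lowest of its population, DP (adjusted p = 0.00529) and hfDSC (0.0254) did.

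Id4 read 6.05, 12.7 and 14.8 FPKM in DP replicates 1, 2 and 4, and 24.3, 42.4 and 26.6 FPKM in DS replicates 4, 5 and 1. It read 7.68, 16.4 and 12.3 FPKM in hfDSC replicates 1, 2 and 4, and 18.1, 21.4 and 8.83 FPKM in IFD replicates 1, 2 and 6. Each DS library exceeded all 9 others. The difference passed against DP (DP minus DS -1.44, SE 0.39, adjusted p = 0.00916) and hfDSC (DS minus hfDSC 1.31, adjusted p = 0.017), and did not pass against IFD (0.95, adjusted p = 0.262). Several of these Id calls rested on few libraries. That of Id2 between DS and hfDSC ended without any 1 of those 6 libraries (adjusted p = 0.0537 to 0.119) and with median-of-ratios scaling (0.11). Between DS and hfDSC, the calls of Id1, Id2 and Id4 ended without DS replicate 5 (adjusted p = 0.071, 0.119 and 0.0745) and without hfDSC replicate 1 (0.0606, 0.0625 and 0.0789). Between DP and DS, those of Id2, Id3 and Id4 ended without DP replicates 1 and 2 (0.148, 0.223 and 0.152), and those of Id2 and Id3 with median-of-ratios scaling (0.0869 and 0.087).

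DS replicate 5 and DP replicate 4 were the highest libraries of their populations for most of the 8 genes. DS replicate 5 had the highest value of its population for all 4 Id genes, Smad6 and Msx1. Its endothelial marker sum, given because Id1 and Smad6 are known to be expressed in vessels too, was the lowest of the 12 libraries at 10.7 FPKM, against 42.3 and 65.5 FPKM in the other DS libraries. DP replicate 4 had the highest value of its population for the 4 Id genes, Smad6 and Msx1, and its sum over 12 papilla markers was 2413 FPKM, against 433 and 788 FPKM in the other DP libraries. Its endothelial sum was 15.3 FPKM, against 98.6 and 163 FPKM in those. The endothelial sums ran from 27.0 to 109 FPKM in hfDSC and from 23.9 to 116 FPKM in IFD. The 12 immediate early genes, which respond to tissue dissociation and which no population lacked, summed to 2851 to 3087 FPKM in DP, 1627 to 2540 in DS, 3690 to 4031 in hfDSC and 1372 to 2005 in IFD. The 7 immune genes with an entry summed to 314 to 911, 37.0 to 354, 51.3 to 1204 and 84.7 to 223 FPKM in the same order. Their sums were 1204, 760 and 51.3 FPKM in hfDSC replicates 1, 2 and 4. The 8 melanocyte genes, of which Pmel was at 0 in every DS library, summed to 200 to 826, 21.1 to 30.4, 17.0 to 91.8 and 166 to 951 FPKM. The parts of dissociation and of vessel, immune and pigment cells in the results were not tested.

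Smad7 (Entrez 17131, chromosome 18, 75367365 to 75395935) passed in none of the 6 comparisons. It read 12.2, 13.6 and 9.36 FPKM in DP replicates 1, 2 and 4, and 14.0, 10.6 and 11.9 FPKM in DS replicates 4, 5 and 1. It read 11.4, 8.38 and 10.2 FPKM in hfDSC replicates 1, 2 and 4, and 10.1, 9.63 and 14.7 FPKM in IFD replicates 1, 2 and 6. Every pair of populations overlapped. Its fold changes ran from -0.17 (hfDSC minus IFD) to 0.26 (DS minus hfDSC, unadjusted 95% interval -0.25 to 0.76).

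Smad6 (Entrez 17130, chromosome 9, 63953076 to 64022085), the inhibitory Smad that acts mainly on the BMP branch, had the lowest FPKM of the 8 genes in each population mean. It read 1.23, 1.92 and 3.22 FPKM in DP replicates 1, 2 and 4, and 3.55, 5.25 and 3.06 FPKM in DS replicates 4, 5 and 1. It read 1.82, 1.90 and 1.77 FPKM in hfDSC replicates 1, 2 and 4, and 2.24, 5.24 and 4.34 FPKM in IFD replicates 1, 2 and 6. All hfDSC libraries lay below all DS and IFD libraries. No comparison passed: DS minus hfDSC was 0.78 (SE 0.32, adjusted p = 0.0666), and hfDSC minus IFD was -0.75 (adjusted p = 0.0858). Without DP replicate 4 Smad6 passed between DS and hfDSC (0.0447), DP and DS (0.0339) and DP and IFD (0.0463), and without IFD replicate 1 between DS and hfDSC (0.0495), hfDSC and IFD (0.0357) and DP and IFD (0.0462). At these levels a pseudocount of 1 understates fold changes.

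**Figure D3:**
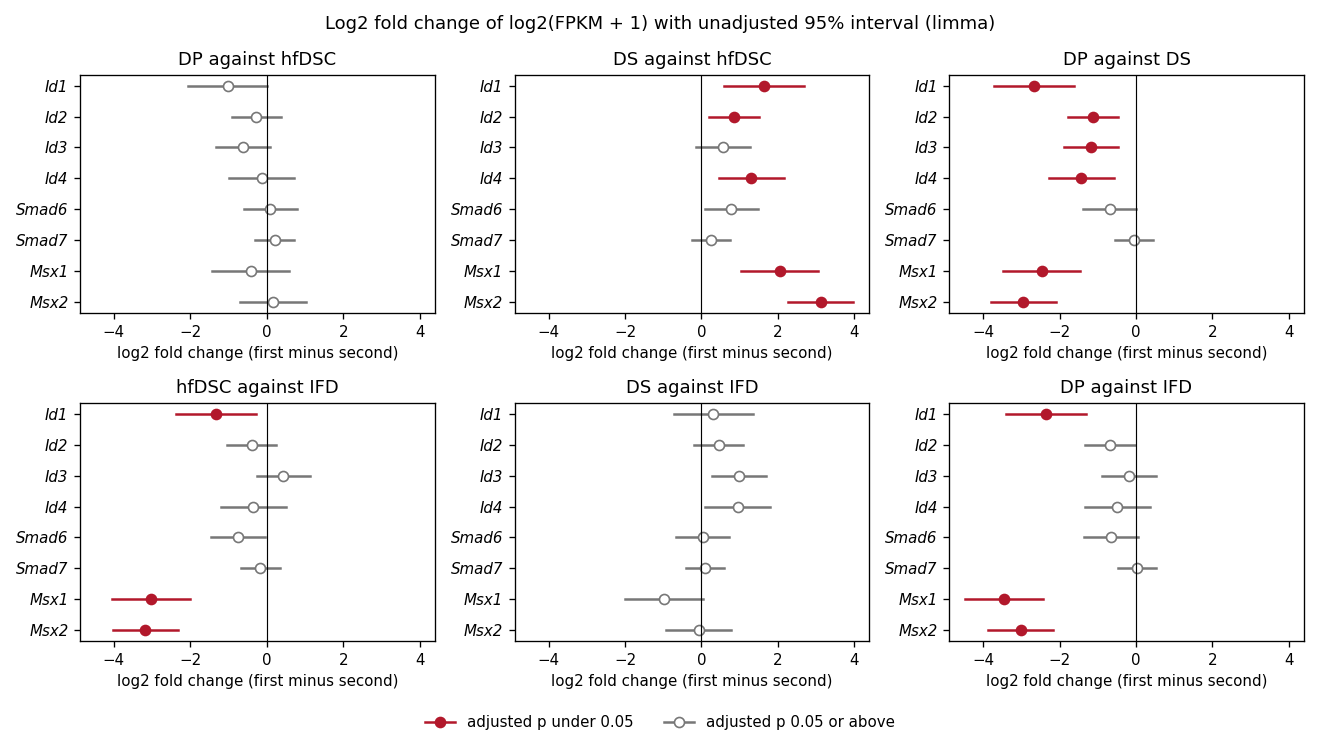
Log2 fold changes of the 8 genes (first-named population minus second) in the 6 comparisons, with unadjusted 95% intervals. Filled red points have adjusted p under 0.05 over all genes: 0, 5, 6, 3, 0 and 3 genes in the panels from top left to bottom right.

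Read by comparison, Id1, Msx1 and Msx2 passed between either of DP and hfDSC and either of DS and IFD, while Id2, Id3 and Id4 passed in comparisons with DS and in none with IFD. Between DP and hfDSC 0 of the 8 passed with limma and 0 had an unadjusted p under 0.05, while 8.69% of all genes tested passed (2.31% higher and 6.38% lower). Blocking on the replicate number within these 6 libraries gave 658 of 12774 genes in place of 1110, and 512 without the block, and still 0 of the 8 either way. Id3 alone had no overlap there, with every DP library below every hfDSC library, as in 23.5% of all genes. Between DS and IFD 0 of the 8 passed and 2 had an unadjusted p under 0.05 (Id3 and Id4), while 2.26% of all genes passed (0.939% higher and 1.32% lower). These 2 genes were higher in all DS libraries, as were 12.7% of all genes.

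DS exceeded hfDSC in 5 of 8 (Id1, Id2, Id4, Msx1 and Msx2), where 24.3% of all genes were higher and 19.6% lower. That count was 2, the pair of Msx genes, without DS replicate 5 or without hfDSC replicate 1. Its libraries lay above those of hfDSC without overlap in 6 of 8, as in 34.4% of all genes. DP was lower than DS in 6 of 8 (the 4 Id genes and the pair of Msx genes), where 33.4% of all genes were lower and 16.4% higher, and in 3 without DP replicates 1 and 2. No overlap was seen in 6 of 8, against 37.5% of all genes. hfDSC were lower than IFD in 3 of 8 (Id1, Msx1 and Msx2), where 19.7% were lower and 17.9% higher, with no overlap in 4 of 8, against 29.7%. DP was lower than IFD in 3 of 8, again Id1, Msx1 and Msx2, where 28.6% were lower and 13.7% higher, with no overlap in 3 of 8, against 32.3%. These comparisons share libraries.

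The median log2 fold change of the 8 genes was -1.31 for DP minus DS, beside -0.36 over all genes, and 1.08 for DS minus hfDSC, beside 0.13 over all genes. It was -0.66 for DP minus IFD, beside -0.32 over all genes, and -0.57 for hfDSC minus IFD, beside -0.14. With median-of-ratios scaling the median over all genes was 0.00 (DP minus DS), -0.04 (DS minus hfDSC), -0.03 (DP minus IFD), -0.02 (hfDSC minus IFD) and, for DP minus hfDSC, -0.07 in place of -0.25. The median of the 8 genes under that scaling is not given here, so their medians above are not to be set beside these. The scaling also moved the split of calls over all genes, giving 2645 genes lower and 2852 higher between DP and DS in place of 4271 and 2094. Between DP and IFD that scaling gave 2204 lower and 2459 higher in place of 3654 and 1746, between DP and hfDSC 514 and 451 in place of 815 and 295, and between DS and hfDSC 2815 and 2283 in place of 2502 and 3105. Between hfDSC and IFD it gave 1941 lower and 2509 higher in place of 2513 and 2287, so that more genes were higher than lower. Under quantile normalization 3152 were lower and 2416 higher between DP and DS, 2721 and 2195 between DP and IFD, and 467 and 493 between DP and hfDSC.

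The make-up of the Id transcripts also differed between libraries, in a measure that a scaling factor common to a library cannot move. Id1 made up 4.64% to 11.9% of the summed FPKM of the 4 Id genes in DP, 18.6% to 22.9% in DS, 9.90% to 15.5% in hfDSC and 27.0% to 28.9% in IFD. Id3 made up 58.3% to 69.2%, 52.1% to 58.5%, 63.9% to 67.9% and 36.8% to 52.1% in the same order. The ratio of Id1 to Id3 was 0.067 to 0.189 in DP, 0.355 to 0.432 in DS, 0.152 to 0.242 in hfDSC and 0.519 to 0.785 in IFD. IFD thus had the highest ratio, DS the next, and DP and hfDSC overlapped below both. The ratio of Msx2 to Id3 ran from 0.049 to 0.0847, 0.171 to 0.353, 0.0201 to 0.0475 and 0.37 to 0.595 in the same populations. In that ratio no population overlapped another, though DP replicate 4 (0.0486) and hfDSC replicate 2 (0.0475) nearly met. These ratios were chosen after the values were seen and were not tested.

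**Figure D4:**
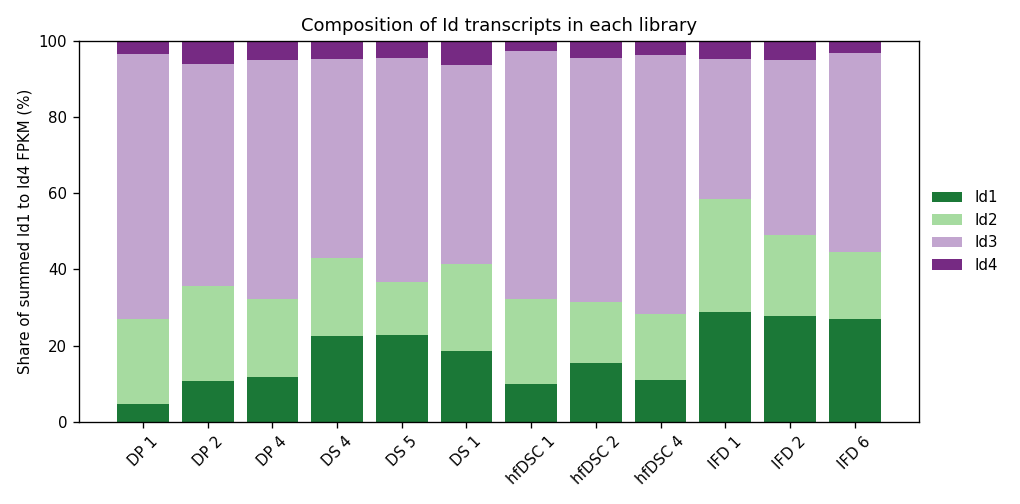
Share of the summed Id1 to Id4 FPKM (%) taken by each Id gene in each of the 12 libraries. The Id1 share is 27.0% to 28.9% in IFD, 18.6% to 22.9% in DS and at most 15.5% in DP and hfDSC, and Id3 has the largest share in all 12 libraries.

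Across the 12 libraries, Msx1 and Msx2 varied together (Pearson r = 0.93 of log2(FPKM + 1)), and both varied with Id1 (0.85 and 0.88). Id1, Id2 and Id4 formed another close set (0.84 to 0.87). Id3 followed Id4 (0.77) more than Msx1 (0.37) or Msx2 (0.38). Smad6 followed Id1 and Msx1 (0.80 each), and Smad7 had r between -0.30 and 0.13 with the other 7. These values describe 12 points that fall into 4 populations, and libraries of a population share their source, so no p is given.

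**Figure D5:**
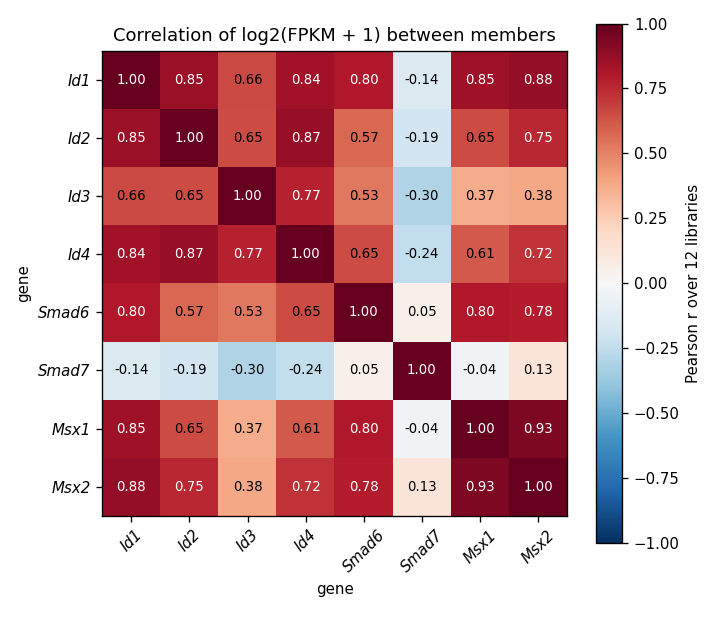
Pearson correlation of log2(FPKM + 1) over the 12 libraries for each pair of the 8 genes. The highest value is 0.93 for Msx1 with Msx2, and the row of Smad7 runs from -0.30 to 0.13.

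The tested genes whose pattern was most like each gene were named by the highest Pearson r over the 12 libraries, 3 per gene. For Msx2 they were Snrpa1, which encodes a spliceosome protein (0.99), Knstrn, a mitotic spindle gene (0.99), and Fermt1, an integrin activator of epithelial cells (0.99). Snrpa1 averaged 22.8 FPKM in DP, 95.4 in DS, 24.3 in hfDSC and 88.5 in IFD. For Msx1 they were the nuclease gene Ankle1 (0.96), the transketolase gene Tkt (0.95) and the RNA helicase gene Ddx55 (0.95). For Id1 they were Lrfn4 (0.97), Tmem209 (0.97) and the DNA repair gene Apex1 (0.97), and for Id2 the splicing factor gene Smndc1 (0.95), the histone mRNA binding gene Slbp (0.95) and the helicase gene Ddx5 (0.94). For Id3 they were the vesicle transport gene Arf5 (0.95), Fam118a (0.93) and Mfsd10 (0.92), and for Id4 the replication stress gene Etaa1 (0.95), Zc3h14 (0.95) and Ctdspl2 (0.95). For Smad6 they were Trabd (0.95), Rpap3 (0.92) and the centriole gene Cntrob (0.91). The best match of Smad7, Mgat4a, reached 0.83, followed by Zfp217 (0.83) and Gm14023 (0.81).

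The genes upstream of these responses were read from lists of ligands, antagonists, receptors, Smads, E proteins and other BMP targets. Counts in each list are to be read beside the shares of all genes given above for the same comparison. Among 7 of 11 ligand genes tested, 2 were higher and 0 lower in DP than in hfDSC, 4 and 0 in DP against DS, and 2 and 1 in DP against IFD. DS had 1 higher and 2 lower than hfDSC and 0 and 1 against IFD, and hfDSC had 1 and 2 against IFD. The 1 ligand call between DS and IFD ended with median-of-ratios scaling, with no filter, and on leaving out any DS or IFD library, DP replicate 2 or hfDSC replicate 1. The 2 between DP and hfDSC were 1 without hfDSC replicate 2 or with the replicate block in those 6 libraries, and 4 without DP replicates 1 and 2. Bmp7 averaged 14.5 ± 5.67 FPKM in DP, 11.1 ± 1.38 in DS, 3.11 ± 0.37 in hfDSC and 17.0 ± 4.40 in IFD. Bmp4 averaged 28.5 ± 20.5, 4.54 ± 1.88, 10.6 ± 6.90 and 23.5 ± 7.86 FPKM in that order. Bmp3 and Gdf10, ligands of the wider family, were higher in DP than in DS (log2 fold change 2.35 and 3.73). The median log2 fold change of the ligands was 1.72 for DP minus DS and -0.69 for DS minus hfDSC, beside -0.36 and 0.13 over all genes.

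Antagonists, which bind BMPs outside the cell, were mostly lower in DS and IFD than in DP and hfDSC, as were the dermal fibroblast markers. A link with the Msx levels was not tested. Among 11 of 13 tested, 8 were higher and 0 lower in DP than in DS, and 9 and 0 in DP than in IFD. DS had 0 higher and 7 lower than hfDSC, and 0 of the 11 differed between DS and IFD (1 at an unadjusted p under 0.05, limma). hfDSC had 7 higher and 1 lower than IFD, and DP 3 and 0 against hfDSC. Of all genes, 16.4% were higher in DP than in DS, 13.7% in DP than in IFD and 17.9% in hfDSC than in IFD. In DS 19.6% were lower than in hfDSC, and in DP 2.31% were higher than in hfDSC. Without hfDSC replicate 1, 5 antagonists passed between hfDSC and IFD in place of 8. Without DP replicates 1 and 2 the DP counts were 8 and 0, 8 and 0, and 4 and 0 against DS, IFD and hfDSC. Chrdl1 averaged 17.8 ± 5.27 FPKM in DP, 0.212 ± 0.176 in DS, 3.37 ± 1.36 in hfDSC and 0.271 ± 0.199 in IFD. Chrd averaged 3.41 ± 0.438, 0.121 ± 0.0939, 0.855 ± 0.222 and 0.121 ± 0.144 FPKM in that order. Nbl1 was lower in DS than in hfDSC (-2.64). The median log2 fold change of the antagonists was 1.90 for DP minus DS and -1.81 for DS minus hfDSC.

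Receptors and Smads moved in both directions. Among 9 of 10 receptor genes tested, DS had 4 higher and 2 lower than hfDSC, and DP 2 higher and 4 lower than DS. hfDSC had 4 and 2, and DP 2 and 2, against IFD, and 0 passed between DP and hfDSC or DS and IFD (2 and 4 at an unadjusted p under 0.05). Without DP replicates 1 and 2, DP had 0 higher and 1 lower than IFD and 1 and 3 against DS. With median-of-ratios scaling, DS had 2 higher and 2 lower than hfDSC, and DP 2 and 2 against DS. Eng and Acvrl1, receptors known from vessels, were lower in DS than in hfDSC (-2.53 and -2.15), while the receptor genes Acvr2b (1.48) and Bmpr1a (0.69) were higher. The Bmpr1a call (adjusted p = 0.0446) ended in 10 alternatives, among them median-of-ratios scaling (0.17) and leaving out DP replicate 2, any DS library or hfDSC replicate 1 or 2 (0.0529 to 0.175). Bmpr1a, the main type I BMP receptor of skin, averaged 15.0 ± 2.85 FPKM in DP, 38.7 ± 1.5 in DS, 24.2 ± 7.63 in hfDSC and 25.1 ± 7.43 in IFD. Among 11 of 12 Smads and regulators tested, DS had 4 higher and 2 lower than hfDSC, DP 0 higher and 4 lower than DS, and 0 differed between DS and IFD (3 at an unadjusted p under 0.05). hfDSC had 2 and 2, and DP 1 and 3, against IFD, and DP had 0 and 1 against hfDSC. These counts moved with the scaling: with median-of-ratios scaling DP had 2 higher and 3 lower than DS, 2 and 1 against IFD and 1 and 0 against hfDSC, and DS 2 and 2 against hfDSC. Without DP replicates 1 and 2, DP had 0 higher and 2 lower than DS, 0 and 1 against IFD and 0 and 0 against hfDSC. The call between DP and hfDSC also ended without any 1 hfDSC or DS library, DP replicate 1 or 2, or IFD replicate 2, and with the replicate block in those 6 libraries. Between DS and hfDSC, 2 passed in all without hfDSC replicate 1, and 3 without hfDSC replicate 4 or DS replicate 4, and between DP and IFD 2 without DP replicate 1. Smad5 averaged 9.36 ± 2.85, 20.4 ± 0.261, 11.5 ± 1.49 and 20.3 ± 1.01 FPKM in DP, DS, hfDSC and IFD. Smad4 averaged 16.8 ± 2.15, 38.6 ± 2.03, 22.3 ± 2.15 and 28.5 ± 4.87 FPKM, Smad2, of the TGF-beta branch, 4.42 ± 0.732, 11.5 ± 1.54, 6.2 ± 0.766 and 7.97 ± 0.775, and the corepressor gene Ski 14.5 ± 2.33, 19.7 ± 0.777, 24.0 ± 2.97 and 12.4 ± 1.67. Between DP and DS the median log2 fold change was -0.58 for the receptors and -0.21 for the Smads and regulators, and between DS and hfDSC it was -0.03 and 0.36.

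The E protein genes Tcf3, Tcf4 and Tcf12, whose products Id proteins bind, did not move as one. Between DS and hfDSC Tcf3 (log2 fold change 1.06) and Tcf12 (0.73) were higher and Tcf4 was lower (-1.47). Between DP and DS Tcf3 (-1.91) and Tcf12 (-1.08) were lower and Tcf4 higher (1.31). Tcf4 was lower in DS than in IFD (-1.20, adjusted p = 0.0326), and Tcf3 was lower in DP than in IFD (-1.22). The Tcf4 call against IFD ended without DS replicate 5 (adjusted p = 0.139) or 1 (0.118), IFD replicate 1 (0.131) or 2 (0.136) or hfDSC replicate 2 (0.0541), and the Tcf3 call between DS and hfDSC without DS replicate 5 (0.0561). The Tcf12 call between DS and hfDSC ended with median-of-ratios scaling (0.0535). Of the 3, 0 passed between DP and hfDSC (1 at an unadjusted p under 0.05) or between hfDSC and IFD (0 at an unadjusted p under 0.05).

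Of 10 other genes known to respond to BMPs, DS had 6 higher and 1 lower than hfDSC, DP 0 higher and 4 lower than DS, and hfDSC 1 higher and 5 lower than IFD. DP had 0 and 4 against IFD and 0 and 1 against hfDSC, and 0 passed between DS and IFD (3 at an unadjusted p under 0.05). Without DP replicates 1 and 2, DP had 2 higher and 4 lower than DS, 1 and 4 against IFD and 2 and 0 against hfDSC. The count between DP and hfDSC was 0 without hfDSC replicate 1 or 4 and 0 with the replicate block in those 6 libraries, and 2 or 3 without any 1 DP library, DS replicate 1 or IFD replicate 6. With median-of-ratios scaling, DP had 1 higher and 3 lower than DS. Dlx3, a homeobox gene of the hair matrix, averaged 6.96 ± 7.07 FPKM in DP, 124 ± 51.8 in DS, 11.3 ± 6.31 in hfDSC and 109 ± 34.3 in IFD. Foxn1, a factor of hair shaft keratinocytes, averaged 1.59 ± 1.56, 7.04 ± 0.112, 1.03 ± 0.751 and 5.68 ± 0.882 FPKM in that order. Dlx3 and Foxn1 are also in the hair matrix list, whose sums were high in the same 6 libraries and in DP replicate 2. Lef1, which also serves Wnt signalling and is in the papilla marker list as well, averaged 19.4 ± 13.5, 32.8 ± 19.1, 4.26 ± 0.826 and 87.0 ± 22.7 FPKM. Runx2, a factor of bone-forming cells, was lower in DS than in hfDSC (-2.37, adjusted p = 0.00022), averaging 1.33 ± 0.357 and 11.6 ± 4.52 FPKM. The median log2 fold change of these 10 genes was -0.86 for DP minus DS and 1.64 for DS minus hfDSC.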

How the data were processed

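The authors deposited 1 table of FPKM values with a column per library. The submitters' processing notes name TopHat2 2.0.13, SAMtools, Cufflinks 2.2.1 and the mm10 build, with no roles. The annotation, filters and any scaling between libraries are not given in the sources used here. An exact 0 can be a failed estimate, and read counts were not used here, so no counting interval is given. The 3.04-fold range of relative depth is approximate, since 26.0% to 35.3% of the genes read shared the commonest ratio.

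The test was that of limma 3.58.1 (R 4.3.3) on log2(FPKM + 1): 4 population means in 1 model, empirical Bayes with a mean-variance trend (8 residual and 4.61 prior degrees of freedom), genes at 1 FPKM or more in at least 3 libraries, two-sided, Benjamini-Hochberg adjustment over 12774 genes, threshold 0.05. The model was tested on simulated data. Pathway genes given with values are up to 4 per list with the smallest F-test p (1 of them is not reported here), and genes of like pattern the 3 with the highest r per gene. The genes and lists were chosen with earlier results of these data known. Replicate numbers come from the labels, which do not say what they mark. Same-numbered dermal papilla and dermal stem cell libraries deviated together from their means (r over genes 0.24 to 0.39 in 3 pairs, against -0.33 to 0.12 for unequal numbers), so a block was fitted there too. Other alternatives were a pseudocount of 0.1, no filter, 2 scalings, pairwise fits and leaving out each library in turn, and, added once the data had been seen, DP replicates 1 and 2 at once. Gene positions are from RefSeq GRCm38.p6, matched by Entrez identifier for all 8 genes, and the authors' annotation may differ.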

Additional observations from a re-analysis of the deposited data

How the results depend on the processing

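Of the 48 fold changes of the 8 genes, 17 passed, and 9 of these passed under every alternative run: those of Msx1 and Msx2 in 4 comparisons each, and that of Id1 between DP and DS. No passing fold change turned its sign. Of the 31 that did not pass, 8 passed under some alternative and 15 changed sign under some.

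In the fits with a block, and not in the main fit, same-numbered DP and hfDSC libraries were treated as pairs, which the labels do not state. Between libraries of different populations the highest r was 0.45, for DS replicate 1 with IFD replicate 6, of unequal number. The block within the 6 libraries of DP and hfDSC gave 658 genes in place of 1110, against 512 without it. It changed no call of the 8 genes there. Fitted over all 12 libraries, where same-numbered libraries of other populations had r from -0.27 to 0.29 (9 pairs), the block gave 5 of the 8 genes between DP and IFD and 150 genes in place of 289 between DS and IFD. Among fold changes that did not pass, the same block turned those of Id1 (-0.34), Id2 (-0.12) and Smad6 (-0.079) between DS and IFD, and that of Smad7 between hfDSC and IFD (0.030).

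Median-of-ratios scaling and fitting with no filter each left 3 of the 8 genes in the F test. Leaving out single libraries gave 3 (without DS replicate 5) to 7 there and 2 to 6 between DS and hfDSC. It gave 515 to 1422 genes between DP and hfDSC, with 515, 625 and 709 without hfDSC replicates 1, 2 and 4. Between DS and IFD it gave 103 to 431 genes, with 189, 103 and 167 without DS replicates 4, 5 and 1 and 114 and 163 without IFD replicates 1 and 2. With both DP replicates 1 and 2 left out, an alternative added once the data had been seen, 3 of the 8 genes passed between DP and DS and 2 between DP and IFD.

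Other sign changes were all among fold changes that did not pass. Without DP replicates 1 and 2, DP minus hfDSC was 0.024 for Id2, 0.33 for Id4 and -0.079 for Smad7, and DP minus IFD was 0.24 for Id3 and -0.25 for Smad7. With median-of-ratios scaling, Id3 was 0.20 (DP minus IFD), Id4 0.086 (DP minus hfDSC), Smad6 -0.022 (DS minus IFD) and Smad7 0.36 (DP minus DS). With quantile normalization, Id3 was -0.11 (hfDSC minus IFD), Id4 0.092 (DP minus hfDSC), and Smad7 0.31 (DP minus DS) and -0.022 (DS minus IFD). Leaving out single libraries, DP minus hfDSC ran from -0.40 to 0.23 for Id4, -0.21 to 0.43 for Msx2 and -0.15 to 0.31 for Smad6. DS minus IFD ran from -0.067 to 0.63 for Id1, -0.32 to 0.31 for Msx2, -0.24 to 0.23 for Smad6 and -0.017 to 0.26 for Smad7. For Smad7, DP minus DS ran from -0.16 to 0.086, DP minus IFD from -0.074 to 0.21, and hfDSC minus IFD from -0.27 to 0.0074. The causes were not tested. With 3 libraries a population and unknown depth, a fold change that did not pass does not show equal levels.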
